A study of Homo sapiens with 8 samples.

Results

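Messenger RNA levels of HMGA2 and of 7 further genes known as targets of the let-7 microRNAs or as close relatives of such a target were measured in DLD-1 cells after transfection with miR-143. The 8 genes were HMGA1, HMGA2, LIN28A, LIN28B, IGF2BP1, IGF2BP2, IGF2BP3 and ARID3B. HMGA2 was chosen by its difference between miR-143 and mock in these same arrays, so its values are given as a description and without a test. The other 7 genes were taken from what is known of the let-7 family, to see whether they moved with HMGA2. They were chosen with earlier results of these data known. Every probe set (a group of probes read out as 1 value) that was annotated to 1 of these genes and to no other was used, which gave 23 of 41091 probe sets and 8 of 19752 genes. HMGA2 had 9 of them, IGF2BP3 4, IGF2BP1 3, HMGA1 and IGF2BP2 2 each, and LIN28A, LIN28B and ARID3B 1 each.

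DLD-1 is an established line of human colon cancer cells. The tested cells received 50 nM of a miR-143 duplex and the control cells were mock transfected, and the labels name the same Lipofectamine reagent for both groups. There were 4 biological replicates of each, total RNA was taken 24 h later, and each sample was read on its own Affymetrix HG-U133 Plus 2.0 array. The labels of the control arrays say only mock, and although the methods name a scrambled control for transfections in general, whether mock cells received any duplex is not stated for these arrays. If they received none, effects of miR-143 and of any small RNA duplex cannot be told apart.

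The let-7 microRNAs accumulate as cells differentiate and hold down a set of genes that are active in the embryo and fetus, largely silent in adult tissue, and often active again in tumors. HMGA2, an architectural protein that binds AT-rich DNA and bends it, carries several let-7 sites in its messenger RNA and is among the best known of these targets. LIN28A and LIN28B bind the let-7 precursors and block their maturation, and both are let-7 targets themselves. The IGF2BP proteins bind messenger RNAs and steady or localize them, and ARID3B is a DNA-binding protein of the ARID family.

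The sequences below are shown because let-7 and miR-143 begin alike but do not share a seed, the stretch from base 2 to base 8 that pairs with a target. They are the mature human microRNAs of RefSeq (GRCh38.p14), written 5′ to 3′ with the seed in capitals. The strands of the synthetic duplex were not given in the sources used here.
hsa-miR-143-3p: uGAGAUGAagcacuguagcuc
hsa-let-7a-5p: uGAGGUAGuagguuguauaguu
hsa-miR-98-5p: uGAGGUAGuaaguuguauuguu
The mature miR-143-3p is encoded at chr5:149428978-149428998 on the plus strand, and miR-98-5p, a member of the let-7 family, at chrX:53556299-53556320 on the minus strand. The let-7a-5p sequence occurs at 3 loci, on chromosomes 9, 11 and 22. All 9 distinct sequences of the let-7 family, from 12 loci, held 1 and the same seed. That seed and the miR-143-3p seed were identical at 4 of 7 bases, and the first 3 seed bases were the same in both. Counted from 1 at the 5′ end, with the let-7 base first, the differences were G5A, A7G and G8A. The seed matches in a target are therefore CTACCTC for let-7 and TCATCTC for miR-143-3p. Target sites of the 8 genes were not analysed here.

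The deposited values are log2 values after RMA, a method that corrects background, brings the arrays to a common distribution and combines the probes of each probe set. A difference of 1 is a doubling, and values of different probe sets cannot be ranked as RNA amounts because probes bind with different strength. The arrays had medians between 7.15 and 7.24. To place dim probe sets, 14 markers of leukocytes, endothelium, fibroblasts, muscle, liver and other tissues were read from the same arrays, and their means ran from 6.65 for ALB to 8.14 for COL1A1. Of 12 markers of colorectal epithelium, 8 lay above the brightest of these, with EPCAM at 13.60 and CDH1 at 12.85, while VIL1, CDX1, GPA33 and LGALS4 did not, at 7.12 to 7.73. The arrays numbered 4 stood apart in both groups: a principal component with 63.6% of the variance placed them at 33.1 (miR-143) and 35.3 (mock), and the other 6 arrays at −24.8 to −4.48. What the number stands for is not stated in the sources used here, so differences of the bright probe sets are also given without both arrays numbered 4.

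HMGA2 was higher on every miR-143 array than on any mock array by its probe set 208025_s_at, which was built on the RefSeq transcript of the gene. The 4 miR-143 arrays read 10.99, 11.00, 10.91 and 11.33, and the 4 mock arrays read 10.24, 10.18, 9.93 and 10.50. The lowest miR-143 array lay 0.41 above the highest mock array. The means were 11.06 ± 0.18 with miR-143 and 10.21 ± 0.23 with mock (log2, SD, n = 4 each), a difference of 0.84 (SE 0.12), or 1.79-fold. By size this was the first of all 41091 probe sets among those higher with miR-143. Without both arrays numbered 4 the difference was 0.85. In RNA from whole cultures, a change in RNA per cell and a change in the share of cells that make it cannot be told apart.

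**Figure D1:**
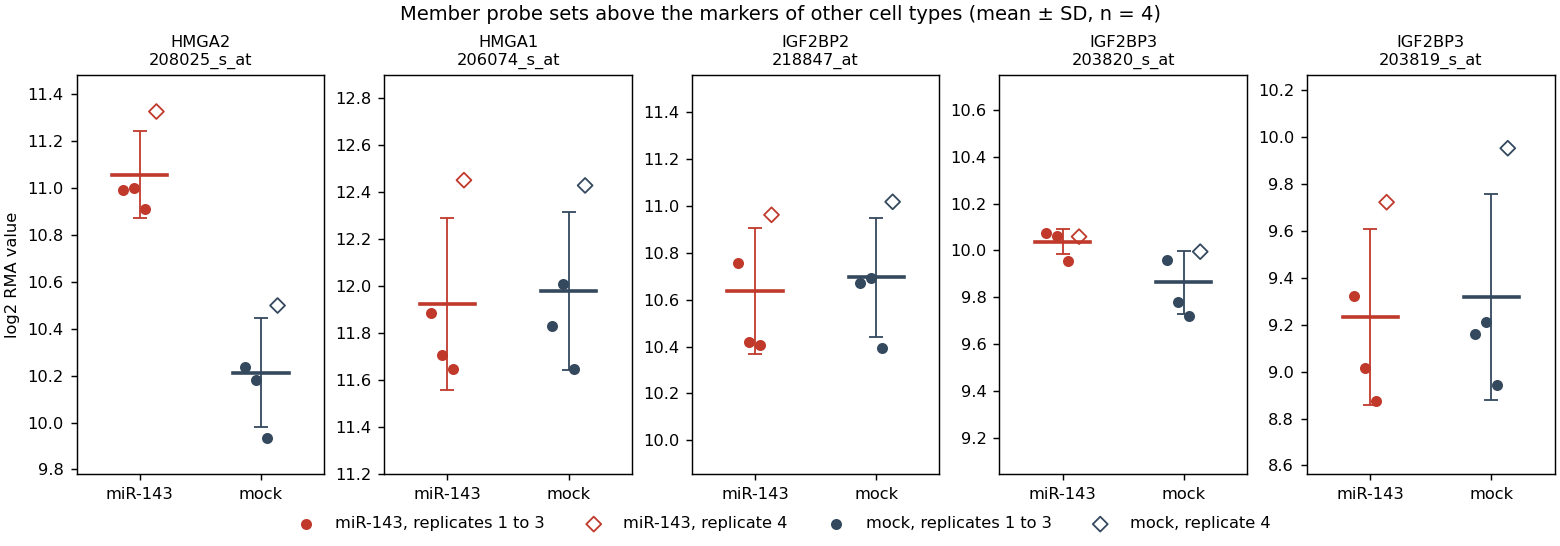
Log2 RMA values (vertical axes, each spanning the same range) of the 5 probe sets whose mean lay above the markers of other cell types, with miR-143 arrays at the left and mock arrays at the right of each panel; points are arrays, open diamonds are the arrays numbered 4, and bars show mean ± SD (n = 4). For HMGA2 the miR-143 arrays lie between 10.91 and 11.33 and the mock arrays between 9.93 and 10.50, whereas both groups overlap for HMGA1, IGF2BP2 and both IGF2BP3 probe sets.

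HMGA2 spans chr12:65824460-65966291 (GRCh38.p14), 141832 bases, and its 9 probe sets did not behave alike. The other 8 had means of 6.22 to 7.71 over the 8 arrays, within or below the markers of other cell types, against 10.64 for 208025_s_at. Their differences ran from −0.07 to 0.09, with 2 higher and 6 lower with miR-143, and in all 8 the groups overlapped. The closest to a separation was 1558682_at, at 7.32, 7.36, 7.34 and 7.44 on the miR-143 arrays and 7.29, 7.17, 7.30 and 7.32 on the mock arrays. Here the lowest miR-143 value fell just short of the highest mock value. The probe set 1558683_a_at, designed on the same sequence record, read 7.70 ± 0.09 with miR-143 and 7.72 ± 0.10 with mock, a difference of −0.02. None of the 8 dim probe sets was built on a RefSeq transcript of the gene, and where their probes lie along it was not analysed here. The higher HMGA2 level after miR-143 is thus a reading of a single probe set, the one that is bright in these cells.

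**Figure D2:**
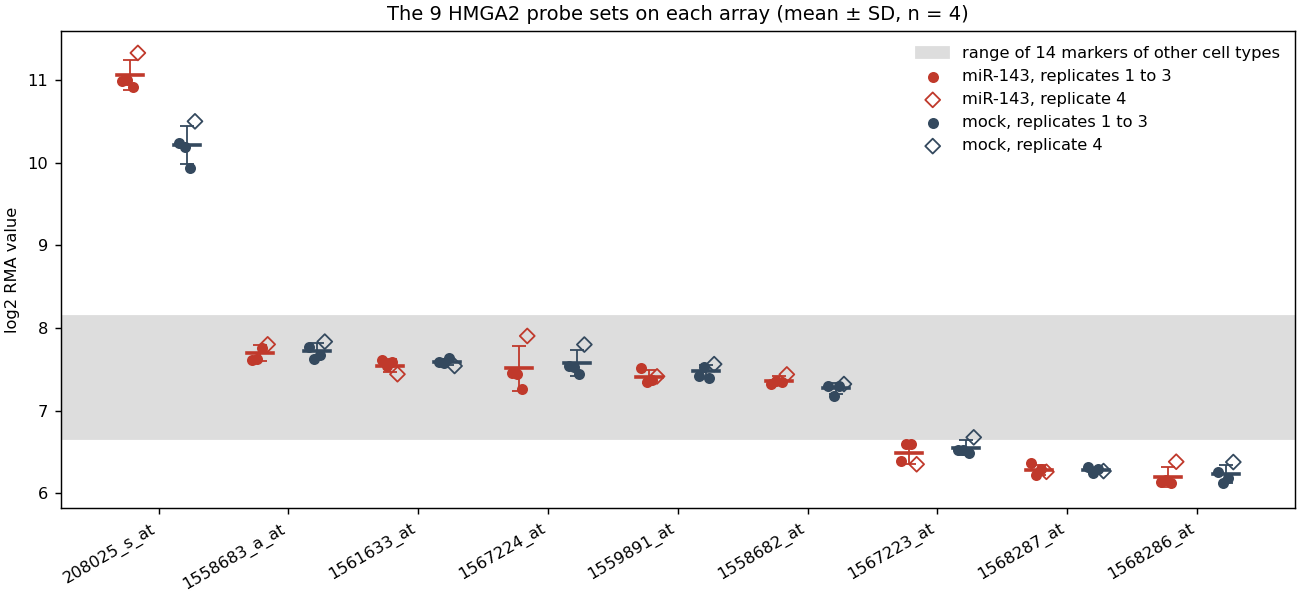
Log2 RMA values (vertical axis) of the 9 HMGA2 probe sets (horizontal axis), with miR-143 arrays to the left of mock arrays; points are arrays, open diamonds the arrays numbered 4, bars mean ± SD (n = 4), and the grey band the range of 14 markers of other cell types, 6.65 to 8.14. A single probe set lies above the band, with miR-143 arrays at 10.91 to 11.33 and mock arrays at 9.93 to 10.50; the other 8 lie within or below it and overlap between groups.

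Across all features, limma found 1 of 41091 probe sets past an adjusted p of 0.05 with all 8 arrays (0.00243%) and 51 without both arrays numbered 4 (0.124%). Among the 14 probe sets of the 7 genes other than HMGA2, 0 passed with all arrays and 0 without the arrays numbered 4, and 1 of the 14 had an unadjusted p under 0.05, as did 1056 of all probe sets (2.57%). Of these 14, 5 were higher and 9 lower with miR-143, with a median difference of −0.02, against −0.01 over all probe sets. The 1 probe set called across all features was OIP5-AS1, a long noncoding RNA named here after its values were seen, at 8.82 ± 0.05 with miR-143 and 9.51 ± 0.09 with mock (difference −0.68, adjusted p from limma 0.0177). The groups did not overlap, with miR-143 above, in 321 of all probe sets (0.781%) and in 2 of the 23. These were the bright HMGA2 probe set, which was chosen on this contrast, and IGF2BP1 223689_at. With miR-143 below, they did not overlap in 515 of all probe sets (1.25%) and in 0 of the 23.

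HMGA1, the closest relative of HMGA2 and like it a protein that binds AT-rich DNA through AT hooks, lies at chr6:34236873-34246231. Its probe set 206074_s_at read 11.89, 11.71, 11.65 and 12.45 on the miR-143 arrays and 11.83, 12.01, 11.64 and 12.43 on the mock arrays. The groups overlapped almost fully, and in each the array numbered 4 was the highest. The difference was −0.06 (95% interval −0.50 to 0.39, exact permutation p = 0.83, limma adjusted p = 1). Without the arrays numbered 4 it was −0.08, and the interval narrowed to −0.29 to 0.12. After cyclic loess normalisation the sign turned, to 0.02. The second HMGA1 probe set, 210457_x_at, was dim, at 7.40 ± 0.10 with miR-143 and 7.41 ± 0.10 with mock. RefSeq lists 8 pseudogenes of HMGA1, and whether these probes also match them was not analysed here, whereas HMGA2 has 0.

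IGF2BP2, an RNA-binding protein that associates with the messenger RNA of the growth factor IGF2, lies at chr3:185643130-185825042. Its probe set 218847_at read 10.76, 10.42, 10.41 and 10.96 on the miR-143 arrays and 10.67, 10.69, 10.39 and 11.02 on the mock arrays. Again the arrays numbered 4 were the highest of both groups, and the groups overlapped. The difference was −0.06 (95% interval −0.40 to 0.28, exact permutation p = 0.914, limma adjusted p = 1), and −0.06 without the arrays numbered 4 (−0.29 to 0.17). The second probe set, 223963_s_at, was dim, with values of 7.16 to 7.26 with miR-143 and 7.17 to 7.30 with mock.

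IGF2BP3, the family member best known as an oncofetal protein of carcinomas, lies at chr7:23310209-23470491 and had 2 bright probe sets, whose differences had opposite signs. The probe set built on the RefSeq transcript, 203820_s_at, read 10.07, 10.06, 9.96 and 10.06 on the miR-143 arrays and 9.96, 9.78, 9.72 and 9.99 on the mock arrays. The lowest miR-143 array lay below the highest mock array, and the other 3 miR-143 arrays lay above all 4 mock arrays. The means were 10.04 ± 0.05 with miR-143 and 9.86 ± 0.13 with mock, a difference of 0.17 (95% interval 0.01 to 0.33, or 1.13-fold). This did not pass over all probe sets (limma adjusted p = 1, exact permutation p = 0.0857), and neither did the difference of 0.21 without the arrays numbered 4 (0.06 to 0.36, limma adjusted p = 0.698). The other bright probe set, 203819_s_at, read 9.32, 9.02, 8.87 and 9.72 on the miR-143 arrays and 9.16, 9.21, 8.94 and 9.95 on the mock arrays. It leaned the opposite way, by −0.08 (95% interval −0.60 to 0.44, exact permutation p = 0.743), with widely overlapping groups, and by −0.04 without the arrays numbered 4 (−0.27 to 0.20). The difference between the probe sets was not tested. The remaining IGF2BP3 probe sets, 216493_s_at and 1569033_at, were dim, at differences of 0.04 and 0.05.

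The probe sets of these genes also differed in how far the arrays numbered 4 lay from the others. The array numbered 4 exceeded the mean of the other 3 by 0.71 with miR-143 and 0.60 with mock for HMGA1 206074_s_at, and by 0.65 with miR-143 and 0.85 with mock for IGF2BP3 203819_s_at. For IGF2BP2 218847_at the excess was 0.43 in both groups, and for HMGA2 208025_s_at it was 0.36 with miR-143 and 0.38 with mock. For IGF2BP3 203820_s_at it was smaller, 0.03 with miR-143 and 0.18 with mock. The medians over all probe sets were 0.03 with miR-143 and 0.04 with mock. For HMGA1 206074_s_at, IGF2BP2 218847_at and IGF2BP3 203819_s_at the step between replicates was thus several times the difference between groups.

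The other 4 genes had no probe set above the markers of other cell types. LIN28A (219823_at, chr1:26410817-26429728) read 6.95, 6.92, 6.83 and 6.69 on the miR-143 arrays and 6.80, 6.84, 6.89 and 6.83 on the mock arrays, a difference of 0.01 (95% interval −0.14 to 0.15). LIN28B (229349_at, chr6:104937026-105083332) read 6.60, 6.64, 6.48 and 6.60 on the miR-143 arrays and 6.64, 6.58, 6.60 and 6.70 on the mock arrays, a difference of −0.05 (−0.17 to 0.08). Both inhibitors of let-7 maturation thus lay within or just below the markers of other tissues in both groups. ARID3B (218964_at, chr15:74541220-74598131) read 7.54, 7.55, 7.43 and 7.34 on the miR-143 arrays and 7.50, 7.51, 7.57 and 7.33 on the mock arrays, a difference of −0.01 (−0.17 to 0.15). Without the arrays numbered 4 the differences were 0.05 for LIN28A, −0.03 for LIN28B and −0.02 for ARID3B. At this level a change in RNA would not be detectable if the probe set reads only background, so these intervals do not bound the change in the RNA itself.

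IGF2BP1, the family member that shields MYC messenger RNA, lies at chr17:48996558-49056145 and had 3 dim probe sets. For 223689_at the miR-143 arrays read 7.09, 7.05, 7.07 and 7.02 and the mock arrays read 6.95, 6.99, 6.92 and 6.96. All miR-143 arrays were above all mock arrays, by 0.03 at the nearest, with a difference of 0.10 (SE 0.05). The exact permutation p was 0.0286, the smallest that 4 arrays against 4 can give, and the limma adjusted p was 1. Without the arrays numbered 4 the difference was 0.12 (95% interval 0.01 to 0.23, limma adjusted p = 0.859). The others, 227377_at and 241574_s_at, differed by −0.02 and −0.03 with overlapping groups. Over all 18 dim probe sets of the 8 genes, with means of 6.22 to 7.71, the differences ran from −0.07 to 0.10, and 6 were higher and 12 lower with miR-143.

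**Figure D3:**
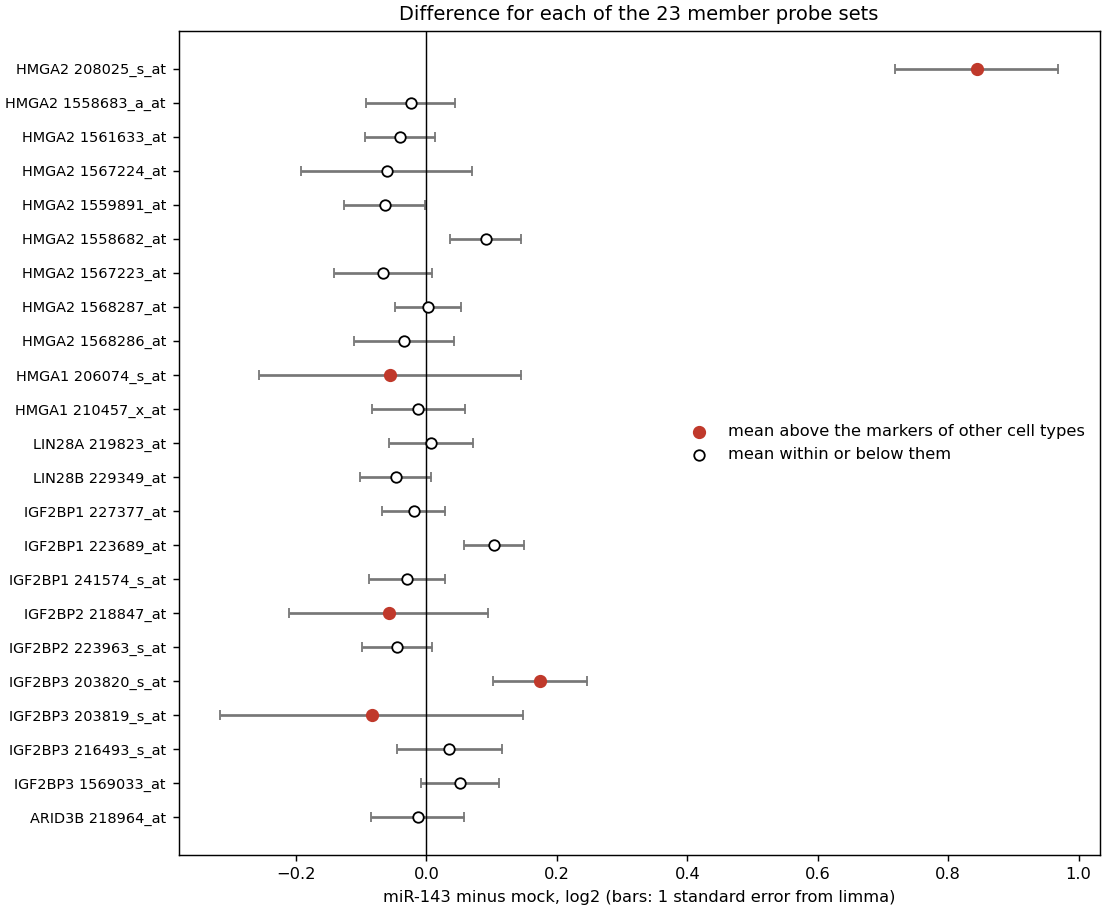
Difference of miR-143 minus mock (horizontal axis, log2) for each of the 23 probe sets, with 1 standard error from limma as bars; filled points lie above the markers of other cell types in mean level and open points within or below them. HMGA2 208025_s_at lies at 0.84, and the next highest is IGF2BP3 203820_s_at at 0.17.

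A joint rise with HMGA2 was therefore not detected among the 7 other genes. For the 4 bright probe sets of HMGA1, IGF2BP2 and IGF2BP3 the differences ran from −0.08 to 0.17, and the highest upper bound of a 95% interval was 0.44, for IGF2BP3 203819_s_at. Without both arrays numbered 4 that bound was 0.20, and the highest was 0.36, for IGF2BP3 203820_s_at. Each interval gives the changes left possible for its own probe set with 4 arrays a group. It is not a limit of detection and is not adjusted for the number of probe sets. For LIN28A, LIN28B, IGF2BP1 and ARID3B, which had only dim probe sets, the arrays set no such bound.

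How closely each gene followed HMGA2 was also described by the root mean square distance, over the 8 arrays, between values centred on their own mean, with each gene taken by its brightest probe set. The 5 nearest of 19751 genes were YOD1, a deubiquitinating enzyme (0.13), DICER1, the enzyme that cuts microRNA precursors (0.14), DCP2, the catalytic subunit that removes messenger RNA caps (0.17), PLEKHA8 (0.19) and OSTM1 (0.23), in log2 units. YOD1 read 10.47, 10.42, 10.48 and 10.56 on the miR-143 arrays and 9.88, 9.68, 9.58 and 9.94 on the mock arrays. DICER1 read 10.05, 10.21, 10.07 and 10.36 on the miR-143 arrays and 9.46, 9.33, 9.41 and 9.85 on the mock arrays. In both, as in HMGA2, every miR-143 array was above every mock array and the array numbered 4 was the highest of its group. Since HMGA2 was selected on this contrast, genes near it have to share the difference between groups. Among the other 7 genes, IGF2BP3 was the nearest, at 0.36 and place 167, followed by IGF2BP2 at 0.46 and place 7507. The place of IGF2BP3 rests on 203820_s_at alone, whose difference between groups was 0.17. Its other bright probe set, 203819_s_at, leaned the opposite way, at −0.08, and was not placed. The distances were 0.47 for HMGA1, LIN28B and IGF2BP1, 0.48 for LIN28A and 0.50 for ARID3B, against 0.47 for the median gene.

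**Figure D4:**
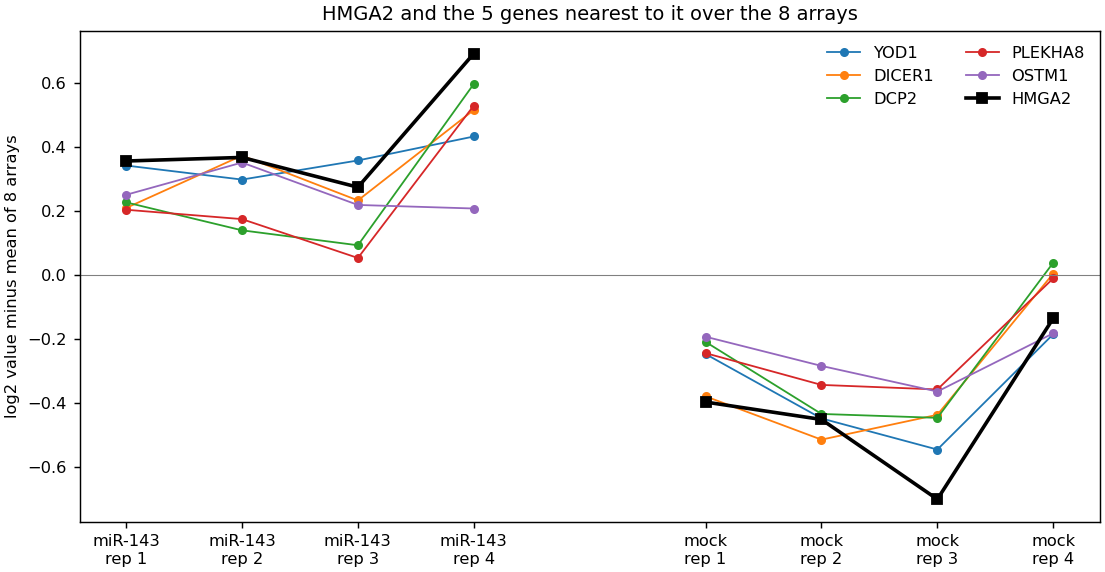
Log2 values minus their mean over the 8 arrays (vertical axis) on each miR-143 and mock array (horizontal axis) for HMGA2 (black) and the 5 genes nearest to it; lines join arrays of a group for reading only and give no order. The distances from HMGA2 run from 0.13 for YOD1 to 0.23 for OSTM1.

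Further genes of the same biology were read from lists, each gene by its brightest probe set. Of 30 other reported let-7 targets 27 were measured, 13 higher and 14 lower with miR-143, with a median difference of −0.01, which was also that of all genes and was 0.01 after cyclic loess normalisation. None passed with all 8 arrays by limma (0 of 27, with 4 at an unadjusted p under 0.05, against 2.57% of all probe sets), and without the arrays numbered 4, 2 passed, both higher, against 0.124% of all probe sets. These were DICER1 and the cell cycle kinase CDK6. The lists were chosen with earlier results of these data known, so these counts describe the list and do not test it. DICER1 was at 10.17 ± 0.14 with miR-143 and 9.51 ± 0.23 with mock, a difference of 0.66 (limma adjusted p = 0.263, and 0.00416 without the arrays numbered 4). CDK6 was at 9.64 ± 0.16 with miR-143 and 9.27 ± 0.19 with mock, a difference of 0.37 (limma adjusted p = 1, and 0.0347 without the arrays numbered 4). In both genes all miR-143 arrays were above all mock arrays, as in 0.781% of all probe sets. THBS1, a secreted matrix glycoprotein, was at −0.22 and GATM, an enzyme of creatine synthesis, at −0.13, and in both the groups overlapped. GATM was dim, with a mean of 7.15, and the list held further dim genes. The counts higher and lower and the median thus include probe sets that may read only background. MYC was at −0.24 and the cyclin CCND1 at −0.19, also with overlapping groups.

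Of 16 factors of let-7 processing and decay 15 were measured, 6 higher and 9 lower, with a median of −0.05 that was 0.01 after cyclic loess normalisation. DICER1 belongs to this list too and was the only 1 of its genes called without the arrays numbered 4. The others of lowest p were TRIM71, an RNA-binding protein (−0.10), the Argonaute AGO4 (0.12) and KHSRP, which promotes let-7 maturation (0.11), all with overlapping groups. TRIM71 and AGO4 were dim, with means of 6.73 and 7.33. The nuclease DROSHA and the exporter XPO5 were at −0.09 and −0.06. TUT4, which with LIN28A adds uridines to let-7 precursors, was at −0.07.

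In the other 4 lists limma called 0 genes, with or without the arrays numbered 4, and 0 had an unadjusted p under 0.05. Of 9 measured HMG genes that bind nucleosomes or bent DNA, 1 was higher and 8 were lower. Their median was −0.09, against −0.01 over all genes, and it was −0.02 after cyclic loess normalisation. HMGN4 was at −0.10, HMGN3 at −0.09, HMGN2 at −0.13 and HMGN1 at −0.12. HMGN5, the gene that was higher, and HMG20B were dim, with means of 7.80 and 7.44. Of 7 measured ARID genes besides ARID3B, 5 were higher and 2 lower (median 0.05), with ARID5B and ARID4B at 0.13 each, ARID2 at −0.16 and ARID5A at 0.05. ARID5A and ARID3A, both among the higher, were dim, with means of 7.18 and 7.93. The counts of HMG and ARID genes higher and lower thus include probe sets that may read only background. Of 7 further oncofetal genes 4 were higher and 3 lower (median 0.01), with 0.04 for AFP, −0.06 for TPBG, −0.02 for DLK1 and −0.02 for CEACAM5. Only TPBG of these 7, with a mean of 10.90, lay above the markers of other cell types. The others were dim and may read only background, so their differences do not bound a change in the RNA. Of 7 proteins found in RNA complexes with the IGF2BP family, 1 was higher and 6 were lower. Their median was −0.09, and −0.02 after cyclic loess normalisation. SYNCRIP was at −0.21, DHX9 at −0.19, ELAVL1 at −0.09 and FMR1 at 0.06. In every gene named in these 4 lists the groups overlapped.

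**Figure D5:**
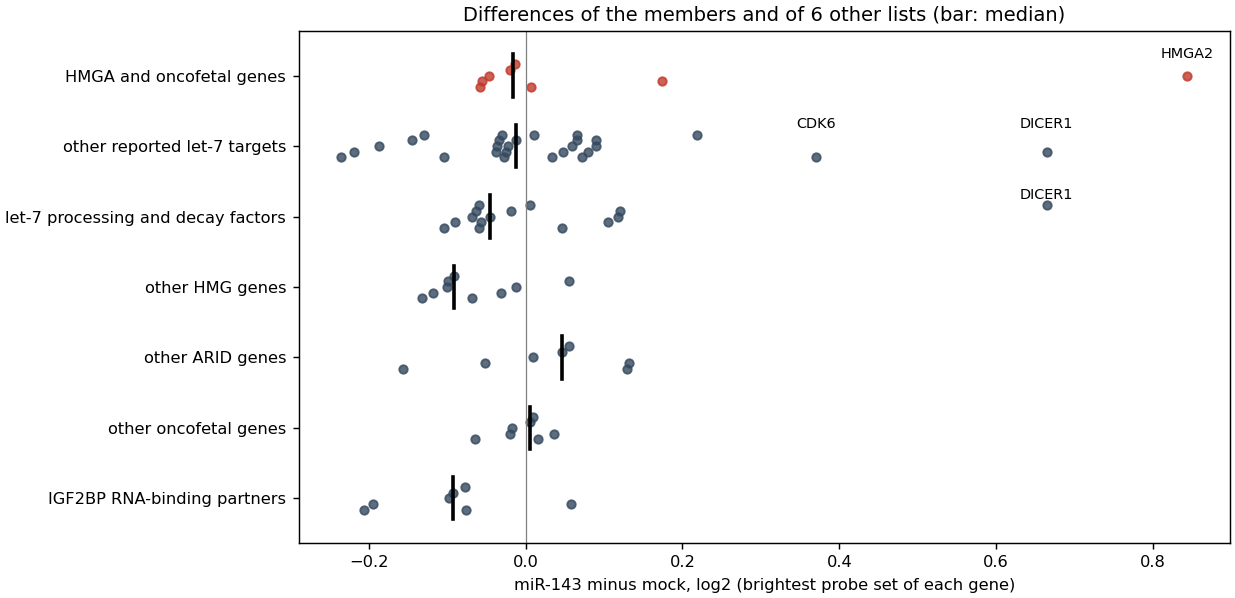
Difference of miR-143 minus mock (horizontal axis, log2) of the 8 genes and of 6 lists of related genes (vertical axis), each point the brightest probe set of a gene and each bar the median of its list. HMGA2 lies at 0.84, DICER1 at 0.66 and CDK6 at 0.37, and the medians of the 6 lists run from −0.09 to 0.05.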

How the data were processed

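Each of the 8 samples had its own array. Per the labels, the authors made the deposited log2 values with RMA in the affy package; the values were used as deposited, and the raw scans were not used here. Arrays give no count, so precision is set by how many there are. Of 54675 probe sets, 41091 carried a single symbol in the platform annotation (updated through RefSeq identifiers) and were tested, 1801 carried several, 11721 none and 62 were controls.

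Groups were compared two-sided by lmFit and eBayes of limma 3.58.1 in R 4.3.3, with Benjamini-Hochberg adjustment over all 41091 probe sets and 0.05 as the threshold. Single values were also tested by the exact two-sided permutation test over the 70 ways to assign 4 of 8 arrays. Unadjusted and adjusted p-values named limma come from this fit. Python 3.11.15, pandas 2.3.3, numpy 2.4.6 and scipy 1.17.1 were used for tables. The limma p-values set a difference against the spread between these arrays, moderated over all probe sets tested. The permutation p-values compare it with the differences under the other assignments of the same arrays.

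The genes and lists were chosen with earlier results of these data known. Named were every probe set of the 8 genes, up to 4 genes of lowest unadjusted p in each list, and the 5 genes nearest to HMGA2. After their values were seen, OIP5-AS1, MYC, CCND1, DROSHA, XPO5 and TUT4 were also named, and HMGN5, HMG20B and ARID3A for their low level. A list gene is its brightest probe set, and listed genes with no single-symbol probe set were not analysed here.

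Replicate numbers were to count as pairs if the deviations of same-numbered arrays correlated above 0.1 for all 4 numbers. Over all probe sets tested, as the rule specified, the correlations were 0.0787, 0.108, 0.558 and 0.772, so replicate 1 missed the limit and no block was used. Over the brightest probe set per gene they were 0.109, 0.166, 0.576 and 0.808, all above the limit, so the decision was close and counts with the block are given in the closing section. Alternatives were a replicate block, array weights, cyclic loess, median centring, filters on level and on interquartile range (above 0.25, the cutoff the methods give for variance between arrays, with no measure named), 1 value per gene, each array left out, and both arrays numbered 4 left out.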

Additional observations from a re-analysis of the deposited data

Results flagged for a closer look

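Among 100 groups of 4 arrays (50 probe sets, both groups), 7 held an array that lay far from the other 3, where chance gives about 1 in 20. In 5 of the 7 it was an array numbered 4. HMGA2 1568286_at read 6.38 on miR-143 replicate 4, against 6.12 to 6.17 on the other 3 miR-143 arrays. IGF2BP3 1569033_at read 6.74 on mock replicate 4, against 6.89 to 6.90 on the other 3 mock arrays. CDK6 read 9.87 on miR-143 replicate 4 (others 9.55 to 9.57), KHSRP 11.62 on miR-143 replicate 4 (others 11.30 to 11.35), and HMGN2 14.28 on mock replicate 4 (others 13.84 to 13.88). IGF2BP2 223963_s_at read 7.26 on miR-143 replicate 1, against 7.16 to 7.17 on the other 3 miR-143 arrays. IGF2BP3 203820_s_at read 9.96 on miR-143 replicate 3, against 10.06 to 10.07 on the other 3 miR-143 arrays.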

How the results depend on the processing

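The count of called probe sets, 1 of 41091, depended on the processing. It was 216 with a replicate block (45 higher, 171 lower), 54 with array weights, 60 after cyclic loess (23 higher, 37 lower), 51 without both arrays numbered 4, and 0 after centring each array on its median, above an interquartile range of 0.25 (3012 probe sets tested), with the brightest probe set per gene, and with the mean of probe sets per gene. With each array left out in turn it was 0 to 1. The replicate numbers missed the rule for pairs by replicate 1 alone (0.0787 over all probe sets, 0.109 over the brightest per gene), and replicates 1 and 2 correlated more with another number (0.166 and 0.472) than with their own. Among the 14 probe sets of the 7 genes other than HMGA2, 0 were called with all arrays and under the 13 alternatives that tested all 14; the other 3 tested 6 (level filter), 3 (interquartile range) and 7 (brightest per gene) of them and also called 0. HMGA2 208025_s_at kept its direction under all 16, at 0.75 to 0.94, and IGF2BP3 203820_s_at under all 15 run for it, at 0.13 to 0.22. The replicate block, the filters and the brightest probe set per gene cannot move these differences, which were again 0.84 and 0.17. HMGA2 was chosen on this contrast, so its direction is a description. HMGA1 206074_s_at changed sign after cyclic loess (0.018) and ran from −0.23 to 0.095 with each array left out, turning without mock replicate 4 (0.095) and without miR-143 replicates 2 or 3. IGF2BP2 218847_at ran from −0.17 to 0.050, turning without mock replicate 4 (0.050) and without miR-143 replicates 2 or 3, and IGF2BP3 203819_s_at from −0.25 to 0.13, turning without mock replicate 4 (0.13) and without miR-143 replicate 3. The causes were not tested. With each array left out, the median of the IGF2BP partners ran from −0.25 (without miR-143 replicate 4) to 0.02 (without mock replicate 4), and that of the let-7 processing factors from −0.11 (without miR-143 replicate 4) to 0.03 (without mock replicate 4 or miR-143 replicate 3). The medians of the other let-7 targets (−0.02 to 0.02) and other oncofetal genes (−0.01 to 0.01) also changed sign, that of the other ARID genes ran from 0.00 to 0.07, and that of the HMG genes stayed below 0, at −0.14 to −0.02. Of the 18 dim probe sets, 5 to 9 were higher with miR-143 over the alternatives. Signal over background is a further limit, since 18 of 23 probe sets did not exceed the markers of other cell types.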
